A study of Rattus norvegicus with 4 samples.

Results

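The cells described here are dorsal root ganglion neurons that carried the mRNAs of S100a16 and Nrp2. S100a16 is a calcium-binding protein of the S100 family, and Nrp2 a co-receptor for class 3 semaphorins and VEGF. The cells also stayed under a set limit for markers of 5 better known groups of neurons. A neuron was counted when it held at least 2 UMIs (unique molecular identifiers, 1 for each captured mRNA molecule) of S100a16 and at least 2 of Nrp2, with under 2 UMIs of Tafa4, Pvalb, Cbln2 and Adcyap1 and under 3 of Trpm8. This rule found 260 cells among 18479 neurons, which in turn were taken from 46679 cell barcodes that passed the filters on 200 genes and 25% mitochondrial UMIs. Neurons were barcodes with at least 20 UMIs per 10000 of Snap25, Uchl1, Tubb3 and Stmn2 together, and more of these than of the glial genes Fabp7, Ttyh1, Sfrp5 and Kcnj10. In the label given to these cells they are neurons of no known subtype, marked by S100a16, Nrp2, Sema5a and Tdo2.

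Dorsal root ganglia hold the cell bodies of the sensory neurons that carry touch, position, temperature, itch and pain from skin, muscle and viscera to the spinal cord. Neurons with thick myelinated axons are rich in neurofilament proteins and in fast sodium and potassium channels, and many serve touch and position, while small unmyelinated neurons carry peripherin and many are nociceptors. Neuropilins act with plexins to receive semaphorin signals, which steer axons and shape synapses.

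The libraries were made from the ipsilateral L4-L6 ganglia of wild-type male SD (Sprague-Dawley) rats in a CPIP group and a Sham group. The labels leave CPIP as an abbreviation; it is commonly read as chronic post-ischaemia pain, a model made by a long tourniquet on the hind paw and reperfusion. The rats of the Sham group were labelled sham, and the time between surgery and tissue collection, and the age of the rats, are in none of the labels. Each group had 2 libraries, called CPIP 1, CPIP 2, Sham 1 and Sham 2, and each library was a pool of ganglia from 3 rats, so differences among single rats cannot be seen.

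The 4 libraries held 60885664 to 64550637 UMIs in 11829 to 12828 barcodes. CPIP 1 gave 77 of the S100a16-Nrp2 neurons, CPIP 2 gave 85, Sham 1 gave 72 and Sham 2 gave 26. Sham 2 stood apart with its low number, and the share of these cells among neurons is given with and without it. Most other results are given over all 4 libraries only. The cells were deeply sequenced, with a median of 8093, 8296, 9052 and 8356 UMIs in CPIP 1, CPIP 2, Sham 1 and Sham 2, against 3166 to 4428 UMIs in the other neurons of the same libraries. A rule that asks for 2 UMIs of 2 genes takes deep cells first, so shares of cells with a UMI are also given after thinning to 5000 UMIs per cell. Shallower cells were left out of the thinned shares, which rest on 199 of the 260 S100a16-Nrp2 neurons (55, 70, 55 and 19 in CPIP 1, CPIP 2, Sham 1 and Sham 2) and on 6968 of 18219 other neurons. Of the barcodes, 19 occurred in more than 1 library, and 0 of these belonged to an S100a16-Nrp2 neuron.

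Both genes were at or above 2 UMIs in 312 neurons, and 52 of these were left out, 39 of them for Adcyap1, 5 for Trpm8, 4 for Cbln2, 3 for Tafa4 and 1 for Pvalb. The members had a median of 4 UMIs of S100a16 (highest 46) and 4 UMIs of Nrp2 (highest 21). Just inside the threshold, 58 members had exactly 2 UMIs of S100a16 and 67 exactly 2 of Nrp2, and just outside it 85 otherwise eligible neurons had 1 UMI of S100a16 with 2 or more of Nrp2 and 62 had 1 of Nrp2 with 2 or more of S100a16. On the side of the excluded genes, 45 members had 1 UMI of Adcyap1 and 20 had 2 UMIs of Trpm8. Trpm8 was thus limited by the rule but not absent. Its UMIs were found in 84 of the 260 members (32.3%) and in 6.32% of other neurons. After thinning the shares were 17.1% and 6.56%.

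In an unsupervised clustering of all neurons into 19 clusters, 224 of the 260 cells (86.2%) fell into 1 cluster, called the main cluster here. Its 1865 cells were led by S100a16, Chst2, Sema5a, Fxyd7, LOC108353456, Kcnv1, Cpne6 and Nefh, with the haemoglobin genes Hba-a1 and Hbb at the top of the same ranking. Members made up 12.0% of that cluster. The other 36 members lay elsewhere: 15 in a cluster led by the Schwann and glial genes Egr2 and Matn2, 14 in a cluster led by the endothelial genes Flt1, Kdr and Emcn, 2 in a cluster led by the fibroblast genes Dcn and Col3a1, and the remaining 5 in neuron clusters of other leading genes. Of the 260 cells, 22 were set aside by the doublet procedure and 12 had satellite glial UMIs above 0.1 of their neuronal UMIs.

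The profile was read as levels in CPM (UMIs of a gene per 1e+06 UMIs) of the UMIs summed over cells, and as the mean over the 4 libraries of the log2 ratio of CPM plus 10, S100a16-Nrp2 neurons over all other neurons. The cells were chosen on their own expression, so these values describe them and no test was made. Of 6196 genes that reached 20 CPM, 1470 (23.7%) were higher in the S100a16-Nrp2 neurons in all 4 libraries and 1902 (30.7%) were lower in all 4, with a median log2 ratio of -0.07.

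The genes of the label came first in the check of identity. S100a16 stood at 812 and 596 CPM in CPIP 1 and CPIP 2 and at 667 and 483 CPM in Sham 1 and Sham 2, and Nrp2 at 549.8, 497, 550.3 and 507 CPM in the same order, both as the rule required. Sema5a, a transmembrane semaphorin that the rule did not use, reached 176 and 161 CPM in the CPIP libraries and 126 and 162 CPM in the Sham libraries, against 14.7 to 22.2 CPM in other neurons (log2 ratio 2.53 ± 0.26, SD, n = 4 libraries). At least 1 UMI of Sema5a was found in 162 of the 260 cells (62.3%), and after thinning in 52.3% of the 199 cells that were deep enough, against 4.75% of the 6968 other neurons that were. Tdo2, the tryptophan dioxygenase that opens the kynurenine pathway, did not mark the cells evenly. It stood at 224 and 51.8 CPM in CPIP 1 and CPIP 2 and at 126 and 15.8 CPM in Sham 1 and Sham 2, with 21.1 to 30.6 CPM in other neurons. Thus Tdo2 was above other neurons in 3 libraries and below them in Sham 2. Within the main cluster it was lower in the members than in the other neurons of that cluster (log2 ratio -1.05). Tdo2 UMIs were found in 102 of 260 cells (39.2%, median 8284.5 UMIs per cell), in 6.03% of other neurons (median 3920) and in 0.349% of glia, which should lack it (median 5403 UMIs). Both Sema5a and Tdo2 were found in 69 of the 260 cells.

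**Figure D1:**
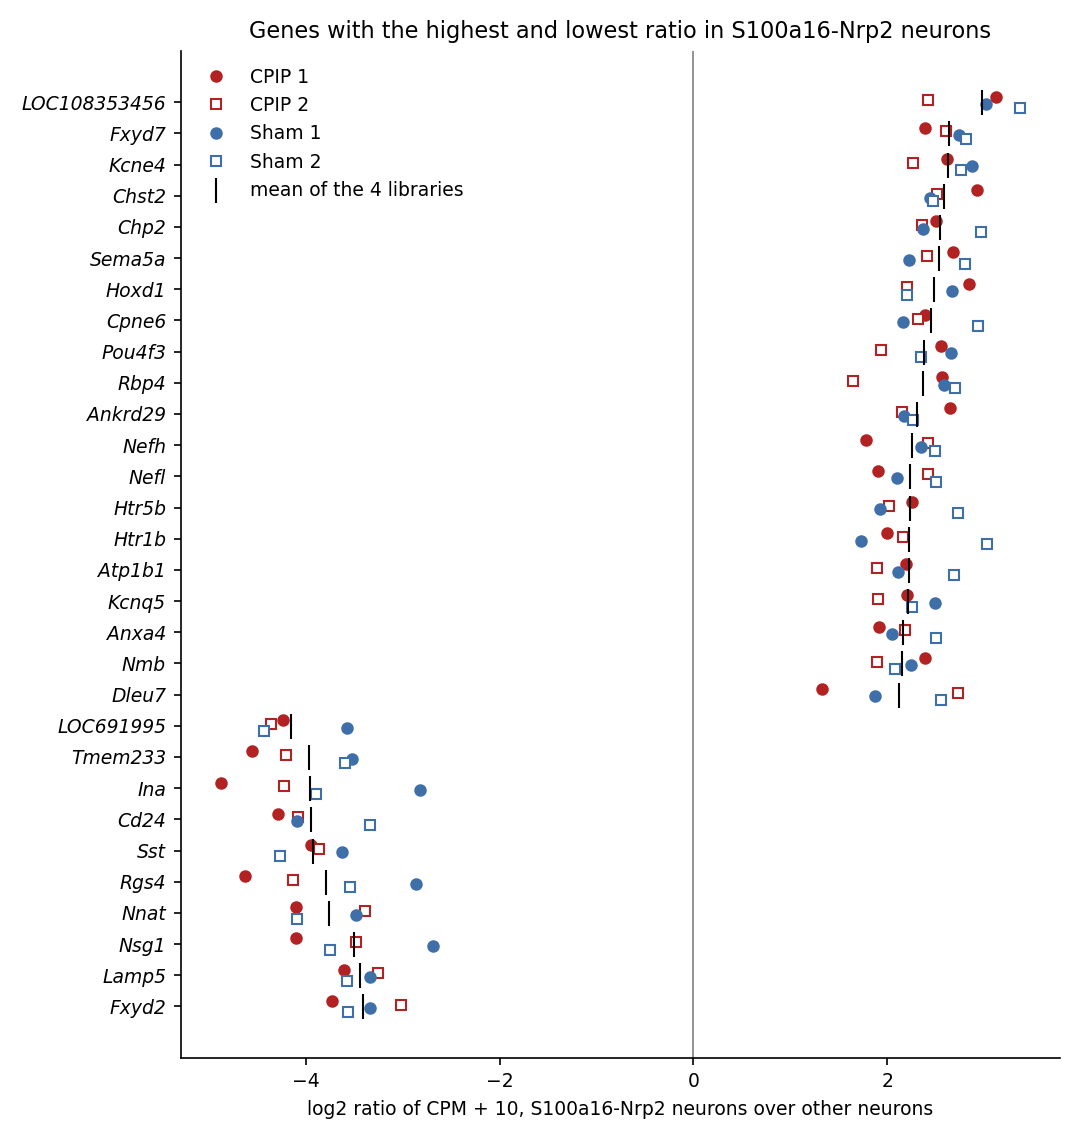
Log2 ratio of CPM plus 10, S100a16-Nrp2 neurons over all other neurons (horizontal axis), for the 20 genes of highest and the 10 of lowest mean ratio outside the rule (rows); points are libraries (red CPIP, blue Sham; filled replicate 1, open replicate 2) and black ticks the mean of the 4. The mean ratios of the upper 20 genes lie between 2.12 (Dleu7) and 2.98 (LOC108353456) and those of the lower 10 between -4.15 (LOC691995) and -3.41 (Fxyd2).

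The 20 genes of highest ratio included Fxyd7 and Atp1b1 of the sodium pump and the potassium channel genes Kcne4 and Kcnq5. Fxyd7, a brain-type regulator of the sodium pump, had 178 and 353 CPM in CPIP 1 and CPIP 2 and 296 and 293 CPM in Sham 1 and Sham 2, against 26.0 to 49.5 CPM in other neurons (log2 ratio 2.64 ± 0.19). Atp1b1, the beta-1 subunit of the same pump, averaged 2214 ± 127 CPM in the S100a16-Nrp2 neurons and 472 ± 81.8 CPM in the other neurons (SD, n = 4 libraries), while Fxyd2, the gamma subunit, was among the 10 genes of lowest ratio at 19.5 ± 6.84 against 298 ± 3.99 CPM. Kcne4, an accessory subunit of potassium channels, had a log2 ratio of 2.63 ± 0.26. Kcnq5, a subunit of the M-type potassium channel that restrains repeated firing, averaged 215 ± 16.3 against 38.7 ± 5.03 CPM. In all 4 libraries the values of these 5 genes did not overlap between the S100a16-Nrp2 neurons and the others.

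Of the other 16, 4 encode transcription factors or receptors. Hoxd1, a homeobox gene of sensory neurons, averaged 321 ± 73.7 CPM against 48.6 ± 10.4 CPM in other neurons, and Pou4f3, a POU-domain factor, 205 ± 28.8 against 31.2 ± 3.50 CPM. The serotonin receptor genes Htr1b and Htr5b averaged 105 ± 59.0 and 53.9 ± 15.7 CPM, against 12.5 ± 2.70 and 3.34 ± 1.14 CPM. Htr1b was highest in Sham 2 at 189.9 CPM and between 64.3 and 97.8 CPM in the other 3 libraries. Nmb, the neuromedin B precursor, was the steadiest of the 20, at 143 and 136 CPM in the CPIP libraries and 148 and 139 CPM in the Sham libraries, against 19.2 to 29.3 CPM in other neurons. Chst2 (a sulfotransferase), Chp2 (a calcineurin-like calcium-binding protein), Cpne6 (a copine), Rbp4 (the retinol carrier), Anxa4 (an annexin), Ankrd29, Dleu7 and LOC108353456 completed the list together with the neurofilament genes Nefl and Nefh.

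At the other end of the ranking, Rgs4, a brake on G-protein signalling, was at 276 and 293 CPM in CPIP 1 and CPIP 2 and at 905 and 518 CPM in Sham 1 and Sham 2, against 5330 to 7041 CPM in other neurons. Sst, the somatostatin precursor, averaged 6.66 CPM against 248 CPM, and Ina, the alpha-internexin gene, 28.1 ± 25.2 against 502 ± 19.1 CPM. Tmem233, Cd24, Nnat, Nsg1, Lamp5 and LOC691995 completed the 10, with mean log2 ratios between -4.15 and -3.45. Of the 10, Rgs4 kept the highest level in the S100a16-Nrp2 neurons, at 498 ± 293 CPM, and Tmem233 the next, at 33.9 ± 17.3 CPM.

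Of the semaphorin receptor list, 8 of 14 genes reached 20 CPM, 5 were higher in all 4 libraries and 3 lower, and Nrp2 is 1 of the 5 through the rule. Nrp1, the partner neuropilin, was at 190.3 and 125 CPM in the CPIP libraries and 179.6 and 162 CPM in the Sham libraries, against 42.3 to 48.7 CPM in other neurons (log2 ratio 1.65). Plxna4, a plexin that pairs with neuropilins, had a log2 ratio of 0.87 and Chl1, an adhesion molecule that binds Nrp1, 1.05. Plxnc1, the receptor of Sema7a, averaged 11.2 ± 3.71 against 89.2 ± 16.5 CPM (log2 ratio -2.22). Among the ligands 7 of 20 genes reached 20 CPM, with 5 higher and 2 lower. Sema3c, a secreted ligand of both neuropilins, had a log2 ratio of 0.80, and Sema4b and Sema4d had -1.75 and -1.39. Vegfa, the other class of neuropilin ligand, had -0.61.

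Cytoskeletal genes of large axons were abundant. Nefl stood at 4308 and 6951 CPM in CPIP 1 and CPIP 2 and at 5276 and 5512 CPM in Sham 1 and Sham 2, against 964 to 1285 CPM in other neurons. Nefh, the heavy neurofilament chain, had 234, 594, 501 and 447 CPM in the same order, against 61.1 to 103 CPM. Nefm had a log2 ratio of 1.75. Genes of the node of Ranvier and the region beside it, Nfasc and Cntnap1, had 0.95 and 0.80. Prph, the peripherin of small neurons, was lower in all 4 libraries with -0.47. Over the list, 10 of 15 genes at 20 CPM were higher in all 4 libraries and 3 lower. Gap43, a growth cone protein kept by many adult sensory neurons, was at 4337 and 3275 CPM in the CPIP libraries and 3579 and 3391 CPM in the Sham libraries, against 1464 to 1666 CPM.

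Channel genes were found in both directions. Of 8 sodium channel genes at 20 CPM, 4 were higher and 3 lower in all 4 libraries. The fast channel gene Scn1a and the accessory subunit genes Scn2b and Scn4b had log2 ratios of 1.02, 0.70 and 0.97, and Scn10a, Scn11a and Scn3b had -0.28, -1.29 and -0.80. Scn10a, the Nav1.8 gene of nociceptors, was nevertheless present at 415 and 269 CPM in the CPIP libraries and 447 and 324 CPM in the Sham libraries, against 354 to 497 CPM in other neurons. Of 17 potassium and HCN channel genes 8 were higher and 5 lower. Kcna1, a Kv1 subunit of myelinated axons, was at 194 and 352 CPM in the CPIP libraries and 342 and 368 CPM in the Sham libraries, against 86.4 to 102 CPM. Kcnv1, a silent Kv subunit, had a log2 ratio of 1.81 and Kcnd3, an A-type channel gene, -2.11. All 9 calcium channel genes at 20 CPM were lower in all 4 libraries (median log2 ratio -0.63). Asic3, an acid-sensing channel known in muscle and joint afferents, was at 118 and 139 CPM in the CPIP libraries and 121 and 198 CPM in the Sham libraries, against 20.7 to 34.8 CPM. Asic1, in contrast, had a log2 ratio of -2.64, and the purinergic receptor gene P2rx3 -1.17. Trpv1, the heat and capsaicin channel, was at 0 to 8.62 CPM in the S100a16-Nrp2 neurons.

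Calca, the gene of the nociceptor peptide CGRP, was abundant but no higher than elsewhere, at 5515 and 3576 CPM in the CPIP libraries and 5562 and 3518 CPM in the Sham libraries, against 4192 to 5219 CPM in other neurons. Its values overlapped, and only 4 of the 260 cells had no Calca UMI. Of 11 neuropeptide and secreted-factor genes at 20 CPM, 2 were higher in all 4 libraries (Nmb and Scg2, the secretogranin 2 gene, log2 ratio 0.93) and 7 lower, of which Adcyap1, Tafa4 and Cbln2 were lower through the rule. The glutamate transporters Slc17a6 and Slc17a7 had log2 ratios of 0.75 and 1.13. Adra2a, an inhibitory adrenoceptor, was at 76.1 and 24.2 CPM in the CPIP libraries and 61.8 and 31.7 CPM in the Sham libraries, against 4.77 to 5.83 CPM. Oprm1, the mu opioid receptor gene, had a log2 ratio of 0.77.

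The GDNF family receptor genes Ret, Gfra2 and Gfra3 were lower in all 4 libraries. Ret, the receptor of GDNF ligands, was at 1.31 and 17.3 CPM in the CPIP libraries and 12.9 and 11.9 CPM in the Sham libraries, against 113 to 141 CPM. Gfra2 and Gfra3, its co-receptors, had log2 ratios of -1.97 and -2.86. Ngfr, the low-affinity neurotrophin receptor, had 295, 459, 326 and 332 CPM in CPIP 1, CPIP 2, Sham 1 and Sham 2, against 79.1 to 126 CPM. Of the 15 transcription factors of sensory neurons at 20 CPM, 6 were higher in all 4 libraries and 9 lower. Bcl11a and Bcl11b, a pair of related zinc finger factors, had log2 ratios of 2.07 and 1.78, while Runx1, which directs non-peptidergic fate, had -1.61 and Etv1 -1.53.

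The nuclear genes of oxidative phosphorylation were higher in all 4 libraries for 22 of 31 genes at 20 CPM and lower for 0, with a median log2 ratio of 0.26. Cox5a, of cytochrome oxidase, led the named ones with 0.82, and Ckmt1, the mitochondrial creatine kinase, had 1.59. Among S100 genes, S100b and S100a3 had log2 ratios of 0.93 and 0.82 and S100a6, abundant in other neurons, -2.98. Of the 7 genes of tryptophan metabolism at 20 CPM, Tdo2 among them, 5 were lower in all 4 libraries, and Ahr, the receptor that kynurenine can bind, was higher with a log2 ratio of 1.59.

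Against lists of markers, the S100a16-Nrp2 neurons went with no single list. Of the 7 listed markers of A-fibre peptidergic nociceptors, 3 reached 20 CPM, and 2 of these were higher in all 4 libraries (Adra2a and Nefh). Of A-beta low-threshold mechanoreceptor markers at 20 CPM, 6 of 8 were higher and 2 lower, Ret among them. Of 5 proprioceptor markers 1 was higher and 2 were lower, Pvalb among them through the rule. Peptidergic nociceptor markers were lower for 4 of 5 genes, Adcyap1 among them through the rule, and non-peptidergic ones for 5 of 5. Of the 4 markers in the label, S100a16 and Nrp2 were high through the rule. Of the others, Sema5a was higher in all 4 libraries and Tdo2 in 3. No narrower cell type name is given here.

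**Figure D2:**
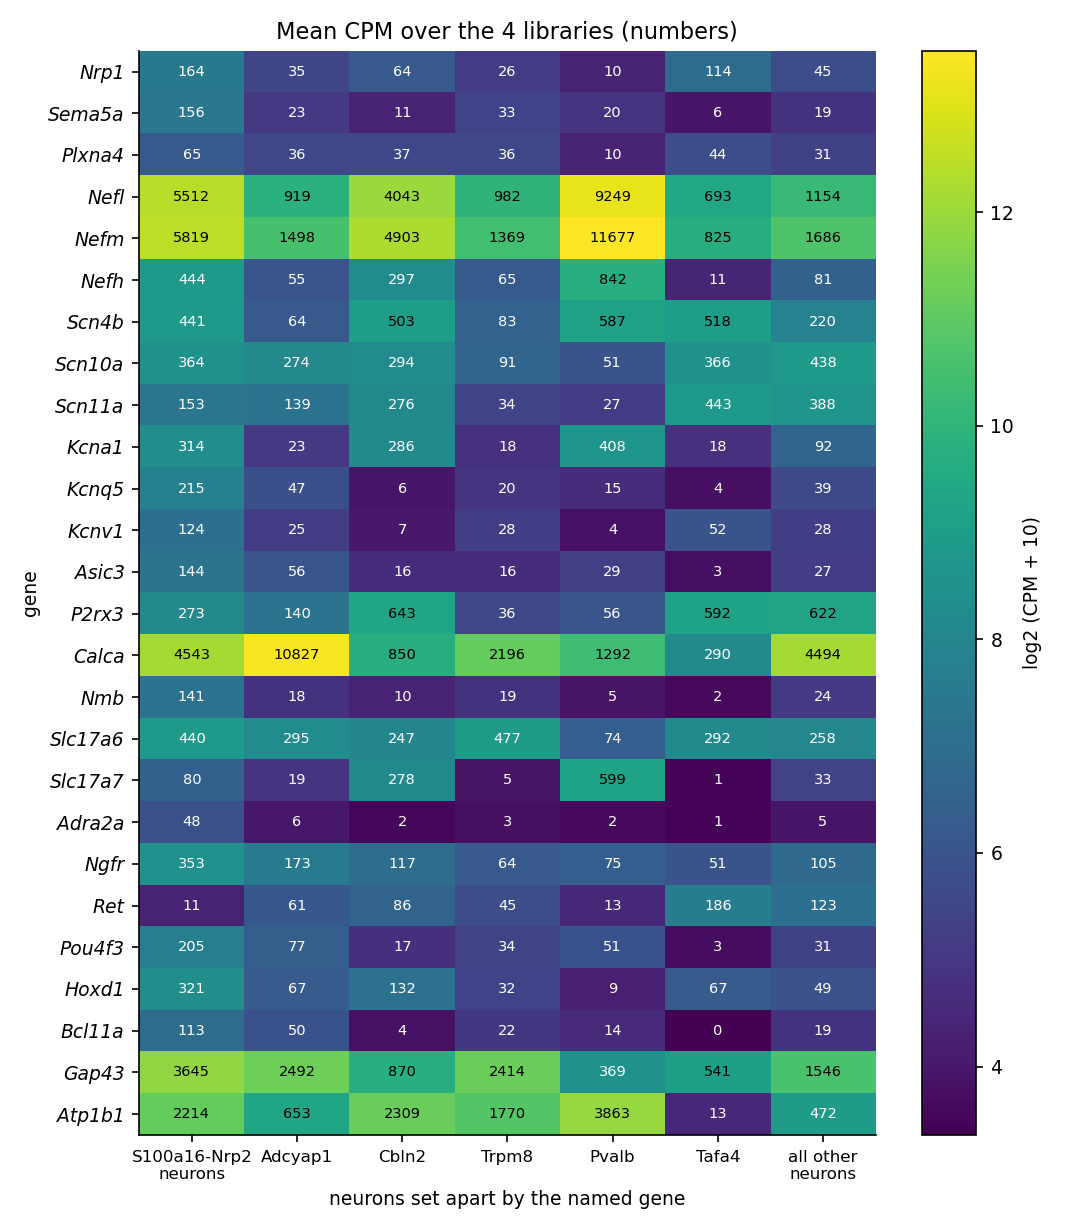
Mean CPM over the 4 libraries (printed numbers; colour, log2 of CPM plus 10) of 26 genes (rows) in the 260 S100a16-Nrp2 neurons, in neurons at or above the UMI limit of Adcyap1, Cbln2, Trpm8, Pvalb or Tafa4, and in all other neurons. Nefh in the S100a16-Nrp2 neurons lay between its levels in Cbln2 and Pvalb neurons, and Kcna1 was near its level in Cbln2 neurons. Calca lay between the levels of Adcyap1 and Trpm8 neurons, and among the sets shown Kcnq5, Nmb and Asic3 were highest in the S100a16-Nrp2 neurons.

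Neurons at or above the UMI limit of 1 of the 5 excluded genes gave a scale for these levels, and 1 neuron could count in several of these sets. Nefh averaged 444 CPM in the S100a16-Nrp2 neurons, 842 CPM in the 290 Pvalb neurons, 297 CPM in the 811 Cbln2 neurons and 54.8 CPM in the 2408 Adcyap1 neurons. Calca averaged 4543 CPM in the S100a16-Nrp2 neurons, against 10827 CPM in Adcyap1 neurons and 849.7 CPM in Cbln2 neurons. Kcnq5 averaged 215 CPM, with 46.6 CPM in Adcyap1 neurons as the next highest of the 5. Over 4171 genes, the correlation of log CPM with the S100a16-Nrp2 neurons was 0.972 for the other 1641 neurons of the main cluster, 0.904 for Adcyap1 neurons, 0.890 for Cbln2, 0.866 for Trpm8, 0.864 for Pvalb and 0.795 for Tafa4 neurons. These sets share libraries and their sizes differ, so the order is descriptive. Much of the profile was shared with the rest of the main cluster. The 224 members in it, set against its other 1641 neurons, had log2 ratios of 0.19 for Sema5a, 0.13 for Nmb, 0.12 for Nefh, 0.20 for Nefl, -0.15 for Kcna1 and -0.51 for Kcnv1. Larger ones were 1.26 for Kcnq5, 1.18 for Hoxd1 and 0.59 for Asic3. Over the 19 clusters, the genes whose level went most closely with the mean of S100a16 and Nrp2 were Golph3 (Pearson r 0.72), Nrp1 (0.71) and Enpp2 (0.70). Nucb1, Snn, Htr1b, Hspb1, Anxa4, Cdk17 and Spred1 followed with r down to 0.66. Of these genes, only Enpp2, Htr1b and Hspb1 were highest in the main cluster. Nrp1 was at 107 CPM in the main cluster and at 614 CPM in the highest other cluster, and Spred1 at 93.5 and 216 CPM. The 19 clusters included those led by glial, endothelial or fibroblast genes.

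The S100a16-Nrp2 neurons were not uniform. A clustering of the 224 cells of the main cluster gave 5 subgroups, which again describe the cells and were not tested. Subgroup 1 (73 cells) and subgroup 3 (27 cells) were rich in S100a4, S100a5, S100a6 and Calca, and subgroup 2 (61 cells) and subgroup 4 (39 cells) in Pcp4, a small calmodulin-binding protein, Nefh and F2r, the thrombin receptor gene. S100a4, a metastasis-associated S100 protein, stood at 937 and 491 CPM in subgroups 1 and 3 and at 12.3 and 13.01 CPM in subgroups 2 and 4. Pcp4 showed the opposite, with 13.1 and 0 CPM in subgroups 1 and 3 and 752 and 1039 CPM in subgroups 2 and 4; subgroup 0, at 985 CPM, was rich in it as well. Calca was at 7400 and 6184 CPM in the S100a4-rich subgroups and at 3842 and 3654 CPM in the Pcp4-rich ones. Subgroup 0 (24 cells) was led by Sfrp5 and Sparc, genes of glia, beside Fosb and Zfp36, and had F2r at 106 CPM, near the 103 CPM of subgroup 2 and below the 401 CPM of subgroup 4.

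The libraries held these kinds of cells in unequal numbers. Subgroup 1 had 38 and 5 cells in CPIP 1 and CPIP 2 and 28 and 2 cells in Sham 1 and Sham 2. Subgroup 4 had 1 and 34 cells in the CPIP libraries and 3 and 1 cells in the Sham libraries, so it was nearly all of CPIP 2. Counted by single genes over all 260 cells, 74 had S100a4 without Pcp4, 82 had Pcp4 without S100a4, 14 had both and 90 had neither. S100a4 was found in 39 of 77 and 19 of 85 cells in the CPIP libraries and in 27 of 72 and 3 of 26 cells in the Sham libraries. After thinning, the shares with S100a4 were 41.8% and 11.4% in CPIP 1 and CPIP 2 and 32.7% and 10.5% in Sham 1 and Sham 2. CPIP 1 and Sham 1 were thus high in S100a4, and CPIP 2 and Sham 2 low, so the groups overlapped and the split ran between replicates of both. Tdo2, at 224 and 51.8 CPM in the CPIP libraries and 126 and 15.8 CPM in the Sham libraries, ran the same way.

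**Figure D3:**
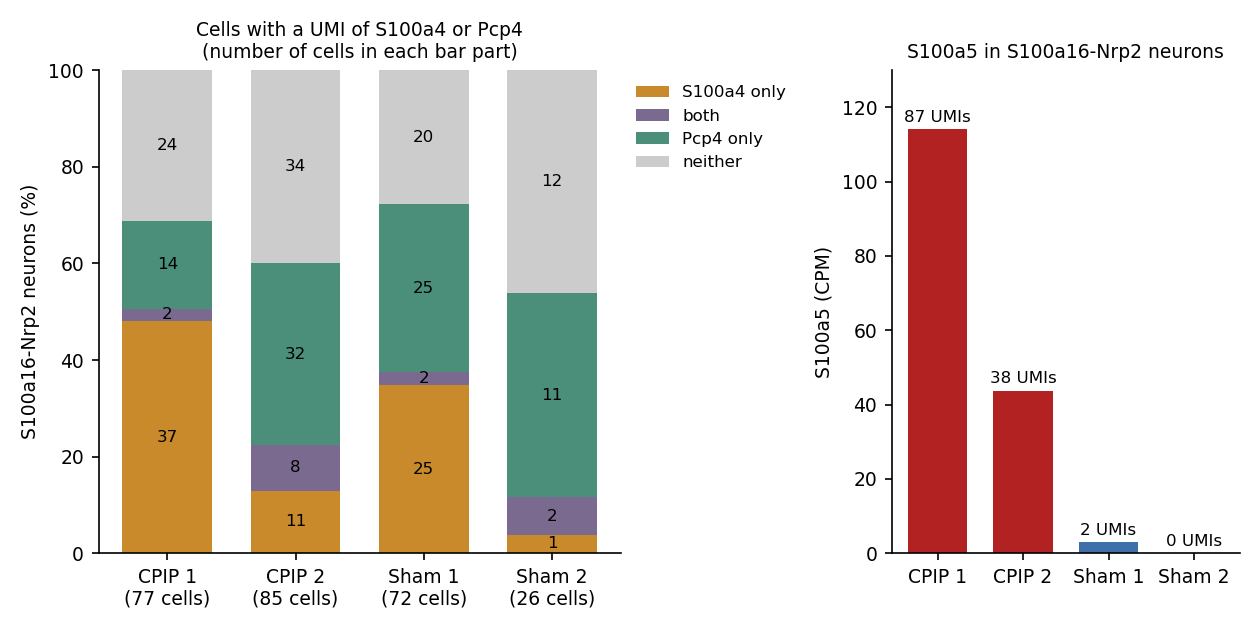
Left, percent of the S100a16-Nrp2 neurons of each library (bars, with the number of cells in each bar part) that had a UMI of S100a4 only, of both genes, of Pcp4 only or of neither. Right, S100a5 in the same cells in CPM with its UMIs; S100a4-only cells were 37 and 11 in the CPIP libraries and 25 and 1 in the Sham libraries, and S100a5 was at 114 and 43.7 CPM in CPIP against 2.87 and 0 CPM in Sham.

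The share of S100a16-Nrp2 neurons among neurons was compared between CPIP and Sham first. It was 1.58% (95% exact binomial interval 1.25 to 1.98%) in CPIP 1 and 1.95% (1.56 to 2.41%) in CPIP 2, against 1.56% (1.22 to 1.96%) in Sham 1 and 0.559% (0.365 to 0.818%) in Sham 2. These intervals cover counting error only. The mean was 1.77% ± 0.261 in CPIP and 1.06% ± 0.708 in Sham (SD, n = 2 libraries each), a log2 ratio of 0.74. An exact two-sided permutation test gave p = 0.33, the smallest that 2 against 2 libraries allow, so no such difference could pass the threshold. CPIP 1 and Sham 1 differed by less than their intervals, and without Sham 2 the log2 ratio was 0.18, against 1.66 without Sham 1. The main cluster as a whole gave 8.85% and 10.98% of neurons in CPIP and 10.6% and 10.0% in Sham (log2 ratio -0.06, exact permutation p = 1), so the low number in Sham 2 was not seen in the size of that cluster.

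**Figure D4:**
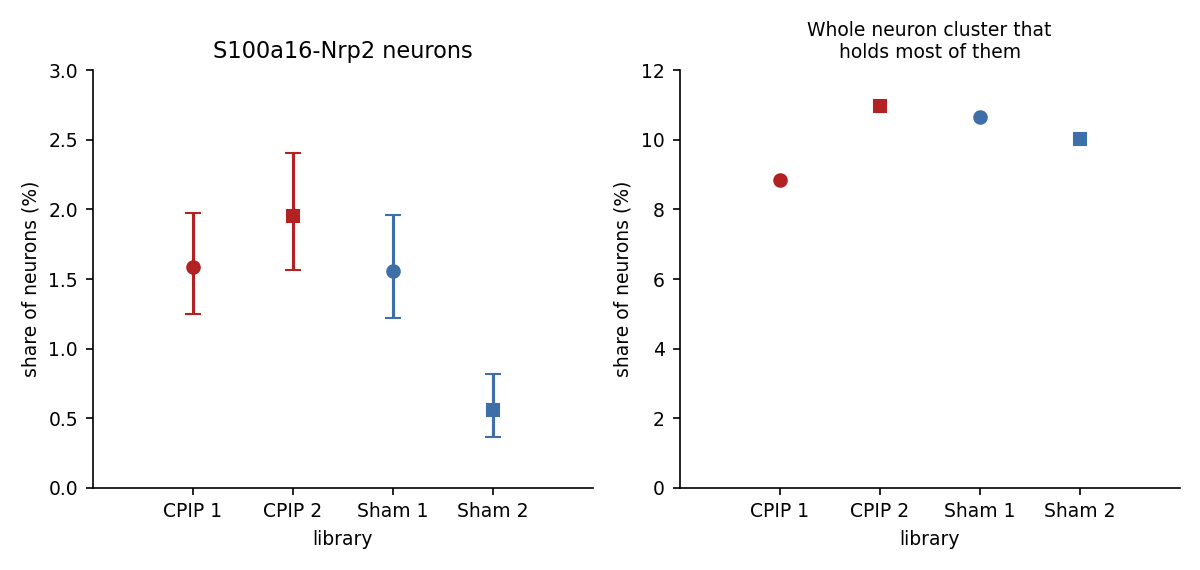
Left, share of neurons that were S100a16-Nrp2 neurons in each library in percent, with 95% exact binomial intervals for counting error. Right, share of neurons in the main cluster; on the left Sham 2 lies at 0.559% below the other 3 libraries (1.56 to 1.95%), and on the right the 4 libraries lie between 8.85 and 10.98%.

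The number of S100a16-Nrp2 neurons counts cells by their UMIs of S100a16 and Nrp2, so the levels of both genes over the whole main cluster restate it and add no support. S100a16 was at 451 and 281 CPM in the CPIP libraries and at 239 and 113 CPM in the Sham libraries over all cells of the cluster, and Nrp2 at 405 and 394 CPM against 295 and 230.3 CPM. Neither passed the edgeR quasi-likelihood test over the cluster (S100a16 log2 1.02, adjusted p = 0.53; Nrp2 0.59, adjusted p = 0.32). The haemoglobin gene Hbb was at 951 and 1313 CPM against 154 and 45.6 CPM in the same cells, and its part in these values was not tested. The 1 gene called over the cluster was the pseudogene Rpl10a-ps9, with 32 and 55 UMIs in CPIP and 0 and 0 in Sham (adjusted p = 0.0467), which shares sequence with its parent gene and is uncertain.

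Within the S100a16-Nrp2 neurons, UMIs were summed per library and CPIP was compared with Sham over 6799 genes with edgeR's quasi-likelihood test. At an adjusted p under 0.05, 0 genes were called (0%), 161 genes had an unadjusted p under 0.05, and DESeq2 called 0 genes as well. The CPIP libraries lay above both Sham libraries for 1001 genes (14.7%), and the groups did not overlap in either direction for 2020 genes (29.7%). The 10 genes of smallest p among those of at least 32 CPM with groups that did not overlap were therefore taken, and 8 of them are described here by their values.

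S100a5, a calcium-, zinc- and copper-binding S100 protein known from olfactory neurons, came first. It had 87 and 38 UMIs in CPIP 1 and CPIP 2 and 2 and 0 UMIs in Sham 1 and Sham 2, or 114 and 43.7 CPM against 2.87 and 0 CPM. The groups did not overlap. Summed over the group, the ratio of CPM was 36.3, with an interval of 9.85 to 303 for counting error only, and the fitted log2 change was 5.11 ± 0.84 (SE, dependent on the prior count because of the 0), with an adjusted p of 0.9997. Without a filter on low counts, edgeR's quasi-likelihood test on the 4 libraries called S100a5 (adjusted p = 1.05e-12). Over 14 alternatives its fitted log2 change ran from 4.28 to 8.62. Among these were fits that left out 1 library, where the spread came from the 2 pools of the other group alone. The call of S100a5 thus depended on the fit, and the cause was not tested. S100a5 UMIs were found in 19 of 77 and 10 of 85 cells in CPIP and in 2 of 72 and 0 of 26 cells in Sham, where 0 of 26 allows a share of up to 11.5%. A few cells held much of the signal: the 3 highest cells had 42 of the 87 UMIs in CPIP 1 and 29 of the 38 in CPIP 2. After thinning the shares were 18.2% and 7.14% in CPIP and 3.64% and 0% in Sham. In other neurons 1.23% and 1.27% of cells had a UMI in CPIP and 0.969% and 1.34% in Sham, and in glia 0.0736% over all libraries. The UMIs lay mostly in cells that also had S100a4: 77 of 87 and 33 of 38 in the CPIP libraries and 2 of 2 in Sham 1. S100a4 itself was not split by group, and Sham 1, rich in S100a4 cells, had 2 S100a5 UMIs. In the RefSeq gene table of GRCr8, S100a4, S100a5 and S100a6 are consecutive genes; strand use in the counting is not given in the sources used here.

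Rgs4 was the 1 gene of these 8 that was lower in CPIP, with 276 and 293 CPM in CPIP and 905 and 518 CPM in Sham (log2 -1.34 ± 0.25, SE). Of the rest, Plekhb1, Tyrp1, Fbln5, Ccl2, Dbi and Nr4a1 had higher values in both CPIP libraries, with fitted log2 changes of 0.92 to 1.79 and adjusted p-values of 0.9997. Ccl2, a chemokine for monocytes, was at 172 and 207 CPM in CPIP and 86.2 and 98.9 CPM in Sham. Nr4a1, an immediate early gene, was at 55.1 and 64.4 CPM in CPIP and 21.6 and 7.91 CPM in Sham. Dbi and Plekhb1 are abundant in glia as well. In every library these 6 genes were lower in members of the main cluster alone. Nr4a1 was then at 26.4 and 10.2 CPM in CPIP and 4.89 and 4.204 CPM in Sham, and Plekhb1 at 38.1 and 15.996 CPM in CPIP and 9.78 and 0 CPM in Sham. Dbi was at 301 and 224 CPM in CPIP and 205 and 75.7 CPM in Sham. Fbln5 was at 108.5 and 42.2 CPM in CPIP and 42.4 and 37.8 CPM in Sham, and its groups overlapped. Of the satellite glial markers, 8 of 9 tested were higher in CPIP, 1 of them without overlap (median log2 0.95, all genes 0.01). Of the Schwann cell markers 5 of 5 were higher, 3 of them without overlap (all genes 14.7%). Of the endothelial markers 3 of 3 were higher, 1 of them without overlap, and of the fibroblast markers 1 of 5. The summed level of the 10 listed satellite glial markers was 537 and 1185 CPM in CPIP and 526 and 1057 CPM in Sham, so it overlapped between groups, and that of Schwann cell markers was 2110 and 1779 CPM in CPIP and 1865 and 1551 CPM in Sham. The part of these cells in the differences was not tested.

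**Figure D5:**
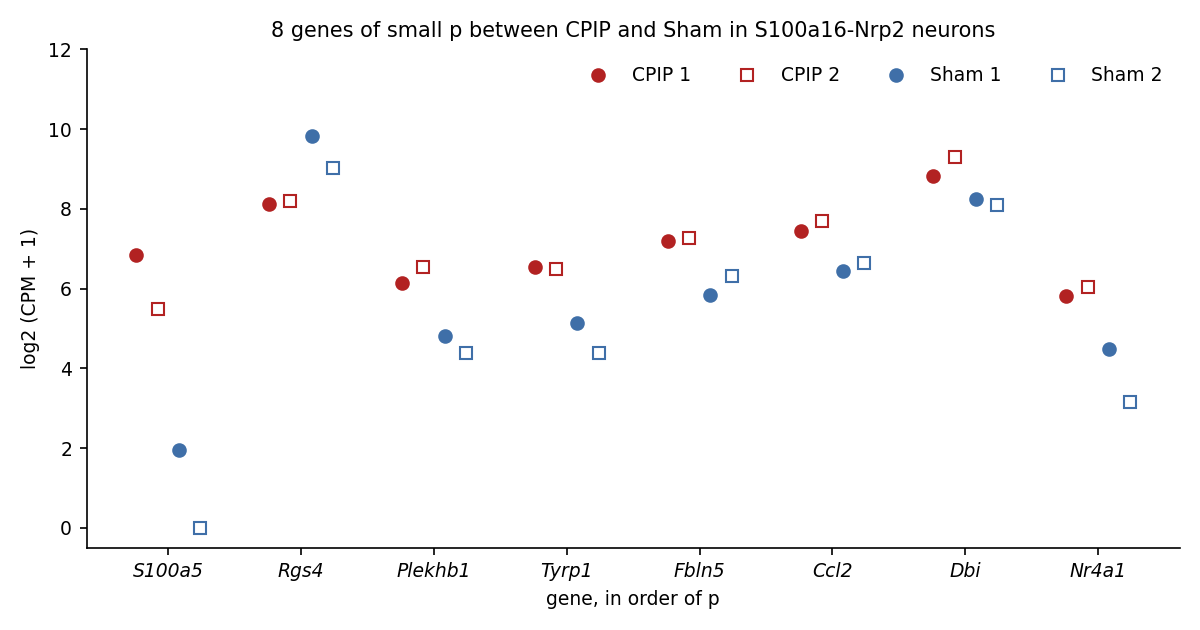
Log2 of CPM plus 1 in each library (points; red CPIP, blue Sham, filled replicate 1, open replicate 2) for 8 genes of small p between CPIP and Sham in the S100a16-Nrp2 neurons. S100a5 lies at 114 and 43.7 CPM in CPIP and 2.87 and 0 CPM in Sham, Rgs4 is lower in CPIP, and none of the 8 passed the test over all genes.

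Over the lists, 22 immediate early genes were tested, 0 were called and 20 had a positive log2 change, with 8 above both Sham libraries. Their median was 0.41. Over all genes 3527 of 6799 were positive with a median of 0.01, 1001 (14.7%) lay above both Sham libraries and 1019 below both. The summed level of the immediate early genes was 3094 and 2850 CPM in CPIP and 2526 and 1895 CPM in Sham over all members, and 1665 and 1150 CPM in CPIP and 1240 and 1030 CPM in Sham in members of the main cluster, where the groups overlapped. Injury and regeneration genes gave 6 of 9 positive with a median of 0.28. Of the 9, 3 lay above both Sham libraries, 2 lay below both, and 0 were called. Of 8 semaphorin receptors 2 were positive (median -0.11), with 1 below both Sham libraries and 0 above both. Of 12 transcription factors 2 were positive (median -0.19), with 4 below both and 0 above both. Of 8 sodium and 7 calcium channel genes 5 and 1 were positive (medians 0.03 and -0.14). None of the genes on these lists was called.

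Whether the S100a16-Nrp2 neurons changed otherwise than the remaining neurons was tested as an interaction, with library as a term, over 13952 genes. edgeR's quasi-likelihood test called 15 genes (0.108%), 8 with a more positive and 7 with a more negative difference. S100a5 was among them, with 114 and 43.7 CPM in CPIP and 2.87 and 0 CPM in Sham in the S100a16-Nrp2 neurons, against 3.22 and 2.81 CPM in CPIP and 1.87 and 2.38 CPM in Sham in other neurons (difference of log2 changes 4.58 ± 0.96, SE, adjusted p = 0.00269). Rgs4 differed in the other direction (-1.21 ± 0.18, adjusted p = 4.1e-08), with 7041 and 5330 CPM in CPIP and 6648 and 6168 CPM in Sham in other neurons. Vim, the intermediate filament gene vimentin, was at 249 and 519 CPM in CPIP and 185 and 119 CPM in Sham, against 431 and 506 CPM in CPIP and 415 and 401 CPM in Sham in other neurons (1.05 ± 0.20, adjusted p = 0.000456). With 3 or more UMIs of S100a16 and of Nrp2 required, the difference of Rgs4 was -0.40 (adjusted p = 1) and was no longer called. Limited to members of the main cluster, 4 genes were called, and these were S100a5, Rgs4, Vim and Sparc. The fibroblast genes Col1a1, Col3a1, Dcn and Apod were more negative in the fit over all 260 cells and rested on Sham 1. Apod had 105 and 11 UMIs in CPIP and 267 and 2 in Sham, and the summed fibroblast markers were at 224 and 192 CPM in CPIP and 618 and 63.3 CPM in Sham over all members, against 80.7 and 75.6 CPM in CPIP and 61.9 and 50.4 CPM in Sham in members of the main cluster.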

How the data were processed

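Single cells of 4 libraries, each pooled from 3 rats, were analysed from the deposited UMI counts per gene and barcode, which are raw whole numbers by their values; aligner, build and cell calling: not given in the sources used here. Capture was by BD Rhapsody whole transcriptome amplification, per the labels' protocols. Features numbered 25629. From the counts, cells were filtered, members chosen, UMIs summed per library, and scaled to CPM (counts per 1e+06 UMIs). Members and gene lists were chosen with earlier results of these data known. Named genes were, for the profile, the 20 highest and 10 lowest mean log2 ratios among genes of 50 CPM; for CPIP against Sham, the called genes or, with fewer than 10, the 10 smallest p at 32 CPM without overlap; the rule's genes and markers; list genes at 20 CPM; and the 10 genes most like S100a16 and Nrp2 over clusters.

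Clustering used scanpy 1.11.5 (2000 variable genes, 30 components, 15 neighbours, Leiden resolution 0.5). Scrublet marked 2 cells in CPIP 1, 278 in CPIP 2, 1 in Sham 1 and 4 in Sham 2, so in the 3 libraries with under 0.5% marked the 5% of cells with the highest scores were set aside instead, in an alternative only. Tests used edgeR 4.0.16 (TMM, filterByExpr, quasi-likelihood, Benjamini-Hochberg) with DESeq2 1.42.0 as an alternative, after a check on simulated counts. P-values of the CPIP against Sham test measure the spread between pools. The interaction test fits the sums of members and of other neurons together, so its p-values need not reflect the spread of the members between pools. Apod was called there (edgeR's quasi-likelihood test, adjusted p = 1.7e-14). In members it was at 138 and 12.7 CPM in CPIP and 384 and 7.91 CPM in Sham. Same-numbered libraries did not deviate together over the 6799 genes as a whole (r = 0.097). Single genes did: S100a4 and Tdo2 were higher in the members of CPIP 1 and Sham 1 than in those of CPIP 2 and Sham 2. Some genes that these rules name are not reported here. Near-identical gene copies may share counts.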

Additional observations from a re-analysis of the deposited data

Results flagged for a closer look

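Listed here are 14 of the 15 genes whose CPIP against Sham change in the S100a16-Nrp2 neurons differed from that in the other neurons by the interaction test (edgeR's quasi-likelihood test, adjusted p under 0.05 over 13952 genes). The values are differences of log2 changes, S100a16-Nrp2 neurons minus other neurons, and no explanation was tested.

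Of the 7 positive ones given here, S100a5 had 4.58, called in 3 of 4 fits that left out 1 library and in members of the main cluster. Cxcl10, a chemokine gene, had 1.15 and Vim 1.05, each called in 2 of 4 such fits. Cd9 had 1.01 and Tyrp1 1.45, also called in 2 of 4. In members Cxcl10 was at 219 and 476 CPM in CPIP and 257 and 39.6 CPM in Sham, with 10 UMIs in Sham 2. Cd9 was at 168 and 374 CPM in CPIP and 90.5 and 257 CPM in Sham. For both genes the groups overlapped. Over 8 alternatives the difference of Cxcl10 ran from 0.44 to 3.11. In members Tyrp1 was at 91.9 and 88.6 CPM in CPIP and 34.5 and 19.8 CPM in Sham, with 5 UMIs in Sham 2. Sparc was at 771.5 and 864.1 CPM in CPIP and 589.1 and 229.5 CPM in Sham. Itih5 was at 133.8 and 155.3 CPM in CPIP and 77.59 and 15.83 CPM in Sham, with 4 UMIs in Sham 2. For Tyrp1, Sparc and Itih5 the lowest library was Sham 2. Sparc had 0.75 and Itih5 1.14, each called in 1 of 4, and Sparc was called with 1.18 in members of the main cluster.

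Of the 7 negative ones, Rgs4 had -1.21 and was called in 4 of 4 such fits, but had -0.40 and was not called with 3 or more UMIs of S100a16 and Nrp2 required. Ina, the alpha-internexin gene, had -1.99, called in 3 of 4, and Cd55 had -0.84, called in 2 of 4. Apod had -2.24, Col1a1 -1.64, Col3a1 -1.90 and Dcn -2.15, and all 4 of these changed sign without Sham 1.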

How the results depend on the processing

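Without a filter on low counts 53 genes were called between CPIP and Sham in the S100a16-Nrp2 neurons, with 3 or more UMIs of both genes 6 (Fosb, Zfp36l1, Sparc, Cst3 and Selenop among them), and over the main cluster 1, in place of 0; the cause was not tested. Leaving out 1 library gave 10 (without Sham 2) to 137 genes (without CPIP 1), with 12 without CPIP 2 and 26 without Sham 1. The other 7 alternatives gave 0. The interaction count of 15 became 97 with 3 or more UMIs and 4 in members of the main cluster, an alternative added after the data were seen, and 13 (without CPIP 2) to 54 (without Sham 1) with 1 library left out, 31 of them without CPIP 1. With 3 or more UMIs the differences of Apod, Col1a1, Col3a1 and Dcn turned to 2.70, 1.68, 2.14 and 10.55; and Rgs4, Ina and Cd55 lost their calls at -0.40, -0.28 and -0.68; without Sham 1 the first 4 turned to 1.34, 0.082, 10.88 and 8.92, the other ends of their ranges with 1 library left out being -5.88 (without CPIP 1), -2.13 (without Sham 2), -2.57 and -6.61 (both without CPIP 1), and in members of the main cluster Col3a1 turned to 0.55. In the profile, the mean log2 ratio of Cbln2, an excluded gene, was 0.022 over the main cluster.

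The log2 ratio of the share was positive in 14 of 15 alternatives and reversed over the main cluster (-0.059). Leaving out 1 library gave 0.18 to 1.66, and thinning to 5000 UMIs gave 1.32. With a gate of 1 UMI, no excluded genes, all cells as the base or doublets left out, the groups overlapped (exact permutation p = 0.667). Same-numbered libraries are not shown to share a source; the replicate block gave a share log2 ratio of 0.91 and 0 called genes. Of the profile values, 709 of 803 moved by less than 1 SD between libraries. With 2 pools per group and 26 cells in Sham 2, low genes rest on few UMIs.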
